A study of Homo sapiens with 12 samples.

Results

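KRT17 and 9 further keratin names were examined in 12 RNA libraries of an ARID1A-knockout HEK-293T line. HEK-293T is an established human embryonic kidney line, and ARID1A is a subunit of a chromatin remodeling complex. The list held KRT17, KRT8, KRT18, KRT19, KRT10, KRT14, KRT15, KRT16, KRT7 and the pseudogene KRT8P36, and each name was matched exactly to the gene names of the count files. All 10 names were found among 60645 gene names, of which 204 were keratin genes or keratin pseudogenes. The list is built around KRT17 because its counts separated the groups in an earlier reading of the same data, so its levels are given as a description without a test. The other 9 were listed as keratins beside it.

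Every group carried the ARID1A knockout. The knockout cells received an empty vector (no ARID1A), wild-type ARID1A (WT) or ARID1A without the intrinsically disordered region IDR1b (ΔIDR1b), and each of these was combined with EWS-FLI1 or with another empty vector. EWS-FLI1 is the fusion transcription factor of Ewing sarcoma, given as 2 µg of plasmid 48 h before harvest according to the protocol. The 6 groups had 2 libraries each, and the labels do not say whether the repeats were separate cultures or how many clones the knockout line holds, so the p-values below measure only the spread between these libraries. How ARID1A was introduced, and at what protein level, is not given in the sources used here. PolyA RNA was sequenced, with 11702251 to 14445379 counts in a library.

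Keratins form the intermediate filaments of epithelial cells. A filament is built from pairs of a type I (acidic) and a type II (basic to neutral) chain, so a cell needs members of both types. KRT8 with KRT18 is the standard pair of simple epithelia and is also made by many cultured lines, KRT14 with KRT5 marks the basal layer of the epidermis, KRT10 with KRT1 its differentiating layers, and KRT16 and KRT17 are type I keratins of skin appendages that rise in stressed or wounded epidermis. KRT7 and KRT19 are further simple-epithelial chains, and KRT15 belongs to basal keratinocytes and the hair follicle. A processed pseudogene such as KRT8P36 is a copy of a keratin mRNA that was reinserted into the genome.

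KRT17 and its closest type I relatives lie near each other on chromosome 17 (GRCh38). KRT17 occupies chr17:41619442-41624842, KRT16 chr17:41609778-41615899 and KRT14 chr17:41582279-41586895, all on the minus strand. KRT8 (chr12:52897187-52949954) and KRT18 (chr12:52948871-52952906) are neighbours on opposite strands of chromosome 12, and KRT8P36 (chr3:138101478-138102917) sits inside the span of DZIP1L on its strand without sharing an exon base. These genes are close copies, and this bears on the counts, because a fragment that matches several places was not counted. Over the aligned coding bases of GENCODE 29 transcripts, KRT17 and KRT14 were 82.4% identical and KRT16 and KRT14 87.2%, and KRT17 and KRT16 shared 973 of 1263 bases. The 100-base stretch in which KRT17 and KRT16 are most alike lies in exon 1 (KRT17 chr17:41624152-41624251, KRT16 chr17:41612232-41612331, KRT14 chr17:41586384-41586483, each 5′ to 3′ on the minus strand). It was chosen by the match of KRT17 with KRT16, among coding stretches inside 1 exon where KRT14 aligns without a gap. Capitals mark the bases at which KRT17 differs from the other 2 genes.
KRT17: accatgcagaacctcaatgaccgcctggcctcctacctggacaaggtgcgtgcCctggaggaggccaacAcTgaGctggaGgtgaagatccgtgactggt
KRT16: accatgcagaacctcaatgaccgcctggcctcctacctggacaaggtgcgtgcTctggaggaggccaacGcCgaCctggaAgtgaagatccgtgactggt
KRT14: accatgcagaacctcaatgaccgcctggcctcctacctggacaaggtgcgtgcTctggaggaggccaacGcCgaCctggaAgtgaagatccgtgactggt
Only 5 of 100 bases separate KRT17 from KRT16 and from KRT14 there, and KRT16 and KRT14 do not differ. The stretch in which KRT17 and KRT16 are least alike, chosen in the same way, overlaps the first downstream (KRT17 chr17:41624085-41624184, KRT16 chr17:41612165-41612264, KRT14 chr17:41586317-41586416), and shows what lets fragments be told apart. Capitals in KRT17 mark bases that either other gene lacks, and capitals in the other 2 mark bases that differ from KRT17.
KRT17: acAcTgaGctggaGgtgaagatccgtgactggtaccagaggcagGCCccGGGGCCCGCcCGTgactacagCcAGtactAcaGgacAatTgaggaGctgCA
KRT16: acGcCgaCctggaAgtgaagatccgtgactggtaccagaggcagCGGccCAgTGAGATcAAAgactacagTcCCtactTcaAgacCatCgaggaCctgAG
KRT14: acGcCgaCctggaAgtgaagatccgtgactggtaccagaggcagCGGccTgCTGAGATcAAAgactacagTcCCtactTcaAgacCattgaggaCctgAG
In it KRT16 differs from KRT17 at 28 bases and KRT14 at 27. The longest run of identical coding bases was 61 between KRT17 and KRT16 and 59 between KRT17 and KRT14. Of all 50-base words of the transcript, 16.0% in KRT17, 22.0% in KRT16 and 23.8% in KRT14 also occur under another gene name, against 41.3% in KRT8, 47.6% in KRT18 and 0.4% in KRT10. Words were matched on either strand. For KRT18 the gene sharing most words was KRT8 (21.5%), which overlaps it on the opposite strand, so these shares are not all copies elsewhere in the genome.

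KRT8 and its pseudogene KRT8P36 were 93.5% identical over 1432 aligned bases. In KRT8P36, 12.1% of 50-base words also occur under another gene name.

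The gene-level counts of ARID1A and FLI1 followed the labels, but they do not tell WT from ΔIDR1b, and the deletion itself was not examined. ARID1A lay between 147 and 165 CPM (the count of a gene scaled to an equal library total, here with a trimmed-mean correction of library sizes, TMM) in the 4 libraries without ARID1A, between 1843 and 2291 CPM with WT and between 2608 and 2878 CPM with ΔIDR1b. FLI1 was at or below 0.146 CPM without EWS-FLI1. With it the level differed between states, at 1759 ± 100.1 CPM without ARID1A, 3568 ± 150.7 with WT and 1897 ± 13.2 with ΔIDR1b (SD, n = 2), so that under EWS-FLI1 the ARID1A state and the level of FLI1 RNA cannot be told apart in comparisons with WT. A list of 8 HEK-293 line markers summed to 2063 to 4039 CPM over the libraries, lowest with ΔIDR1b and highest without ARID1A, with NEFM near 0. CKB alone held 1470 to 3252 CPM and VIM 423 to 686 CPM, so this order is mostly that of CKB. The list did not move as 1: NES rose with ΔIDR1b against no ARID1A under the empty vector (log2 fold change 1.11), while VIM (-0.28) and NEFL (-0.32) fell. VIM lost its call without no ARID1A repeat 2 or ΔIDR1b repeat 1, and NEFL without each of the 4 libraries compared. Markers of epidermal keratinocytes summed to between 0.223 and 1.27 CPM in the 12 libraries, with KRT1 at 0 everywhere and KRT5, TP63 and DSG3 at 4, 8 and 1 counts in all libraries together. With the empty vector the sum was 0.223 to 0.374 CPM without ARID1A, 0.893 to 1.27 with WT and 0.512 to 0.929 with ΔIDR1b. With EWS-FLI1 it was 0.259 to 0.341, 0.606 to 0.753 and 0.283 to 0.556 CPM. KRT14 belongs to this list as well, and its 17 counts in WT repeat 2 of the empty vector make up that 1.27 CPM. Markers of simple epithelium, a list that includes KRT8 and KRT18, summed to 296 to 486 CPM, and markers of fibroblasts to 88.0 to 135 CPM, the latter highest with ΔIDR1b. Of the fibroblast markers COL1A1 alone held 73.0 to 105 CPM, and COL1A2 had 1 count in all libraries together. The part of these marker lists in the results below was not tested.

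KRT17 was close to silent without ARID1A and was among the abundant keratins once WT or ΔIDR1b ARID1A was present. With the empty vector, the libraries without ARID1A held 0.743 and 2.84 CPM of KRT17 (10 and 38 counts), those with WT 373 and 324 CPM (5017 and 4332 counts), and those with ΔIDR1b 269 and 263 CPM (3682 and 3680 counts). With EWS-FLI1 the values were 1.02 and 1.21 CPM without ARID1A (12 and 14 counts), 249 and 312 CPM with WT (3304 and 4113 counts), and 165 and 237 CPM with ΔIDR1b (2331 and 3408 counts). All 8 libraries with an ARID1A construct lay far above all 4 without, and no library fell in between. The group means were 348 ± 35.1 CPM for WT with the empty vector, 280 ± 44.6 for WT with EWS-FLI1, 266 ± 4.32 for ΔIDR1b with the empty vector, 201 ± 50.8 for ΔIDR1b with EWS-FLI1, 1.79 ± 1.48 for no ARID1A with the empty vector and 1.12 ± 0.132 for no ARID1A with EWS-FLI1 (SD, n = 2 each). In this order WT with EWS-FLI1 and ΔIDR1b with the empty vector overlap, as do both groups without ARID1A. In these bulk libraries, fewer cells with KRT17 and less KRT17 RNA per cell cannot be told apart.

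**Figure D1:**
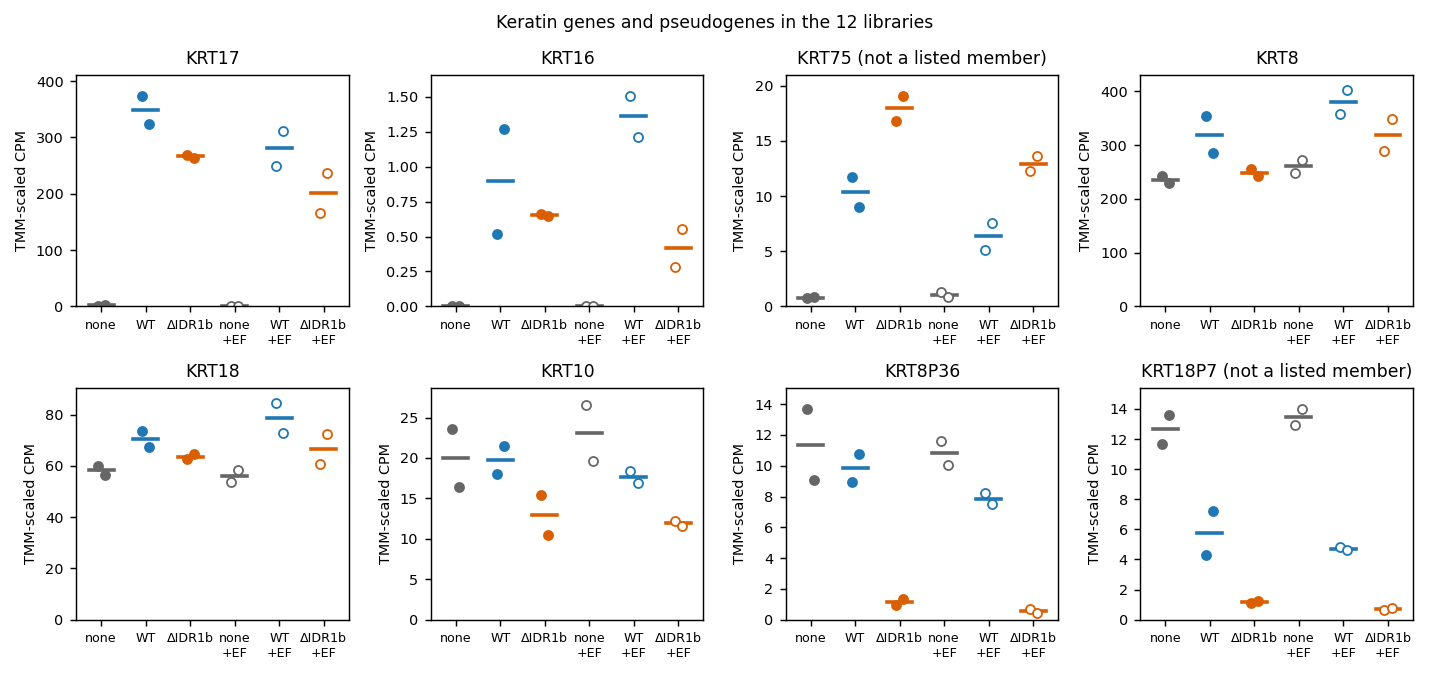
TMM-scaled CPM (linear axes from 0) of 6 listed keratins and of KRT75 and KRT18P7 in each library; points are libraries, bars are group means, filled points the empty vector and open points EWS-FLI1 (EF). KRT17, KRT16 and KRT75 are near 0 in the 4 libraries without ARID1A, while KRT8P36 and KRT18P7 are lowest in the 4 libraries with ΔIDR1b.

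The fitted log2 fold change of KRT17 against no ARID1A was 7.60 (SE 0.23) for WT and 7.21 (SE 0.23) for ΔIDR1b with the empty vector, or 194-fold and 148-fold. With EWS-FLI1 it was 7.96 (SE 0.25) for WT and 7.48 (SE 0.25) for ΔIDR1b, or 249-fold and 179-fold. Ranked by fitted rise among 20377 genes, KRT17 stood in place 2, 4, 1 and 3 in these comparisons, which describes the values that chose it. The size with the empty vector rests in part on the library of no ARID1A with 38 counts: without no ARID1A repeat 2, the log2 fold changes were 8.86 for WT and 8.46 for ΔIDR1b, and without no ARID1A repeat 1 they were 6.94 and 6.54.

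KRT17 was lower with ΔIDR1b than with WT in all libraries of the same vector. The log2 fold change was -0.39 (SE 0.14) with the empty vector and -0.48 (SE 0.14) with EWS-FLI1, or 1.31-fold and 1.39-fold lower, and the libraries of the groups compared did not overlap. ARID1A itself was higher with ΔIDR1b than with WT, by a log2 fold change of 0.44 (adjusted p = 6.91e-04) and 0.34 (adjusted p = 0.00973). The construct and the level of its RNA cannot be told apart in this difference.

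The keratin counts of a library therefore had a different make-up. KRT17 made up 0.192 to 0.785% of all keratin counts in the libraries without ARID1A and 28.6 to 42.8% in the others. KRT8 made up 62.6 to 66.9% without ARID1A and 37.5 to 50.1% with a construct. Keratins as a whole took 0.0356 to 0.0404% of all counts without ARID1A and 0.0619 to 0.0830% with a construct.

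**Figure D2:**
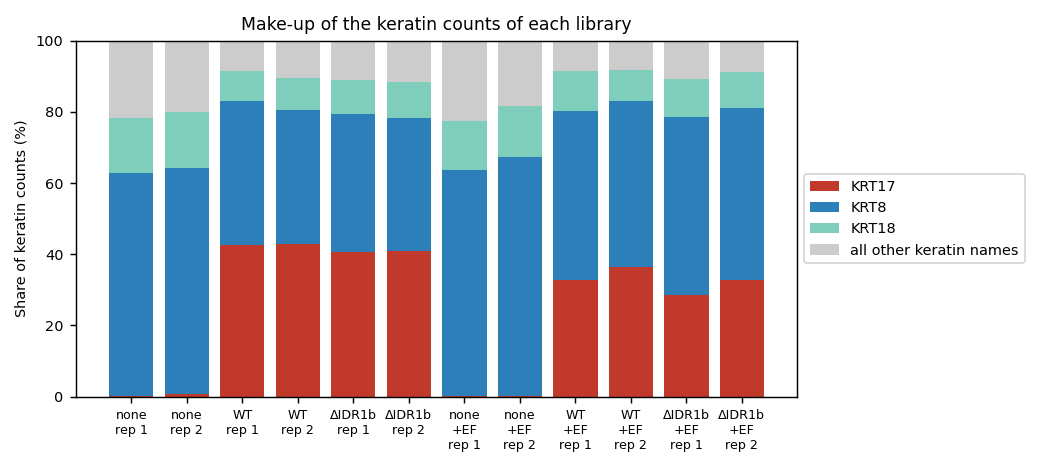
Share of each library's keratin counts (%) held by KRT17, KRT8, KRT18 and all other keratin names, 1 stacked bar per library. KRT17 is below 1% in the 4 libraries without ARID1A and between 28.6 and 42.8% in the other 8.

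Per length, using all exon bases of a gene in the count files, the level of KRT17 was 116 ± 11.7 CPM per kb with WT and the empty vector, against 46.4 ± 7.14 for KRT8 and 23.0 ± 1.39 for KRT18 (SD, n = 2). Without ARID1A the levels per kb were 0.598 ± 0.495 for KRT17, 34.3 ± 1.26 for KRT8 and 19.0 ± 0.865 for KRT18. The per-kb ratio of KRT17 to KRT8 was thus 2.51 with WT and 0.0177 without ARID1A. The exon bases of KRT8 in the files total 6881, against 1687 in its GENCODE 29 transcript, and those of KRT17 total 2996 against 1651. With the transcript lengths, a choice made after seeing the data, the ratio with WT was 1.12. With EWS-FLI1 the ratio was 1.69 for WT and 1.44 for ΔIDR1b on the first lengths, and 0.751 and 0.639 on the second, so which of the 2 genes stands higher depends on the length used.

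KRT8, the type II chain of the simple-epithelial pair, was present in every library and rose modestly with WT. Its values with the empty vector were 242 and 230 CPM without ARID1A, 354 and 285 with WT, and 256 and 242 with ΔIDR1b. With EWS-FLI1 they were 248 and 273 CPM without ARID1A, 358 and 402 with WT, and 288 and 349 with ΔIDR1b. The WT libraries lay above those without ARID1A within each vector, while ΔIDR1b overlapped no ARID1A with the empty vector. Against no ARID1A, the log2 fold change for WT was 0.44 (SE 0.11, adjusted p = 0.00692) with the empty vector and 0.55 (SE 0.11, adjusted p = 4.78e-04) with EWS-FLI1. For ΔIDR1b it was 0.08 (adjusted p = 0.623) and 0.29 (adjusted p = 0.0350). ΔIDR1b lay below WT with the empty vector (-0.36, adjusted p = 0.0138). With EWS-FLI1 the value was -0.26 (adjusted p = 0.0952), and -0.26 (adjusted p = 0.0160) with a replicate block within each vector.

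Several of the KRT8 calls depend on a single library. The rise with WT and the empty vector was 0.40 (adjusted p = 0.104) without no ARID1A repeat 2 and 0.27 (adjusted p = 0.245) without WT repeat 1. The fall from WT to ΔIDR1b with the empty vector was -0.20 (adjusted p = 0.330) without WT repeat 1 and -0.32 (adjusted p = 0.126) without ΔIDR1b repeat 2. For ΔIDR1b against no ARID1A with EWS-FLI1, the call was lost without no ARID1A repeat 1 (0.22, adjusted p = 0.274), without no ARID1A repeat 2 (0.36, adjusted p = 0.0591), without ΔIDR1b repeat 2 (0.15, adjusted p = 0.429) and with DESeq2 (0.27, adjusted p = 0.0634). ΔIDR1b against WT with EWS-FLI1 was called at -0.34 (adjusted p = 0.0247) without WT repeat 1 and at -0.40 (adjusted p = 0.0335) without ΔIDR1b repeat 2. The rise of KRT8 with WT and EWS-FLI1 kept its call in every alternative tried.

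KRT18, the type I partner of KRT8, was called higher with WT under EWS-FLI1. The libraries held 60.1 and 56.4 CPM without ARID1A, 73.5 and 67.5 with WT and 62.6 and 64.5 with ΔIDR1b under the empty vector. Under EWS-FLI1 they held 53.8 and 58.6 CPM without ARID1A, 84.6 and 72.9 with WT and 60.7 and 72.4 with ΔIDR1b. WT with EWS-FLI1 gave its sole call among the 6 comparisons of ARID1A states, with a log2 fold change over no ARID1A of 0.49 (SE 0.12, adjusted p = 0.00402). Without no ARID1A repeat 1 that value was 0.43 (adjusted p = 0.0887), and without WT repeat 2 KRT18 was called lower with ΔIDR1b than with WT under EWS-FLI1 (-0.35, adjusted p = 0.0392). With the empty vector the WT value was 0.28 (adjusted p = 0.136). The counts of KRT8 were 3.75 to 5.52 times those of KRT18 over the 12 libraries. The 2 genes overlap by 525 exon bases on opposite strands, which is 17.1% of the exon bases of KRT18, and the counting used no strand and left out fragments that touch both genes.

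KRT16, the type I keratin next to KRT17, had 0 counts in all 4 libraries without ARID1A, which allows up to 0.223 to 0.259 CPM in each. With WT it had 7 and 17 counts under the empty vector and 20 and 16 under EWS-FLI1. With ΔIDR1b it had 9 and 9, and 4 and 8. All 8 libraries with a construct held KRT16 counts and none without did. Set against a floor of 3 counts over both libraries without ARID1A, KRT16 was 8-fold higher with WT and 5.82-fold higher with ΔIDR1b under the empty vector. Under EWS-FLI1 it was 10.6-fold and 3.27-fold higher. The counts with a construct were taken as they stand, without their own counting error, so these folds are not lower limits. KRT16 entered the test only through the groups in which it was present, so that it had to differ from no ARID1A, and no test of that difference is given.

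The KRT16 counts were 0.140 to 0.605% of the KRT17 counts of the same library, and the 2 genes share stretches of sequence. Whether some of the KRT16 counts come from KRT17 RNA was not tested. KRT16 held fewer than 10 counts in every ΔIDR1b library and passed the filter through WT libraries, so no test of ΔIDR1b against WT is given either. Its fitted log2 fold change there was -0.455 (SE 0.82) under the empty vector and -1.67 (SE 0.84) under EWS-FLI1.

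KRT10, the type I chain of differentiating epidermis, was lower with ΔIDR1b. Its values under the empty vector were 23.6 and 16.4 CPM without ARID1A, 18.0 and 21.4 with WT and 15.4 and 10.4 with ΔIDR1b. Under EWS-FLI1 they were 26.5 and 19.6 CPM without ARID1A, 18.4 and 16.9 with WT and 12.3 and 11.6 with ΔIDR1b. The ΔIDR1b libraries lay below all others of the same vector. Against no ARID1A the log2 fold change was -0.63 (SE 0.20, adjusted p = 0.0143) under the empty vector and -0.95 (SE 0.20, adjusted p = 3.22e-04) under EWS-FLI1, and against WT it was -0.61 (adjusted p = 0.0232) and -0.56 (adjusted p = 0.0471). WT against no ARID1A gave -0.02 (adjusted p = 0.965) and -0.39 (adjusted p = 0.174).

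The fall of KRT10 from no ARID1A to ΔIDR1b under EWS-FLI1 kept its call in every alternative. Under the empty vector it was -0.34 (adjusted p = 0.324) without no ARID1A repeat 1 and -0.37 (adjusted p = 0.282) without ΔIDR1b repeat 2. Against WT under the empty vector it was -0.48 (adjusted p = 0.196) without WT repeat 2 and -0.36 (adjusted p = 0.351) without ΔIDR1b repeat 2. Against WT under EWS-FLI1 the call was lost in 8 alternatives: without WT repeat 1 (adjusted p = 0.123), ΔIDR1b repeat 1 (0.134) or ΔIDR1b repeat 2 (0.172), without repeat 1 (0.0526) or repeat 2 (0.0507) of WT with the empty vector, and with upper-quartile scaling (0.0650), DESeq2 (0.0595) or only the libraries compared (0.0881).

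KRT8P36 did not follow KRT8. It held 13.7 and 9.05 CPM without ARID1A, 8.93 and 10.8 with WT and 0.950 and 1.36 with ΔIDR1b under the empty vector. Under EWS-FLI1 it held 11.6 and 10.0 CPM without ARID1A, 8.21 and 7.51 with WT and 0.708 and 0.417 with ΔIDR1b. All 4 libraries with ΔIDR1b were far below the other 8. Against no ARID1A the log2 fold change with ΔIDR1b was -3.29 (SE 0.31, adjusted p = 3.91e-10) and -4.25 (SE 0.35, adjusted p = 1.96e-11), or 9.76-fold and 19.0-fold lower. Against WT it was -3.08 (adjusted p = 7.83e-09) and -3.79 (adjusted p = 2.58e-09), while WT against no ARID1A gave -0.21 (adjusted p = 0.632) and -0.46 (adjusted p = 0.204). No alternative removed a call with ΔIDR1b. DZIP1L, the gene around it, changed less, by -0.47 (adjusted p = 0.0120) and -0.69 (adjusted p = 4.40e-04) with ΔIDR1b against no ARID1A. Without no ARID1A repeat 2 the first of these was -0.36 (adjusted p = 0.175), and without ΔIDR1b repeat 1 it was -0.40 (adjusted p = 0.127).

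The other 4 members were too low to enter the test. KRT14 had 0 to 17 counts in a library, KRT15 0 to 5, KRT7 0 to 5 and KRT19 0 to 4. Over both libraries of a group, KRT14 had 21 counts with WT and 4 without ARID1A under the empty vector and 14 and 3 under EWS-FLI1, but 17 of the 21 were in WT repeat 2. KRT7 had 0 counts in all 4 libraries without ARID1A and between 0 and 5 in the others. At this depth no difference in these 4 genes can be given.

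Beside KRT17 and KRT16, 4 members were thus tested, and their calls can be set against the share of all 20377 genes called. In WT against no ARID1A 1 of the 4 passed (KRT8) under the empty vector, where 11.7% of all genes did, and 2 of 4 (KRT8 and KRT18) under EWS-FLI1, where 18.1% did. In ΔIDR1b against no ARID1A 2 of 4 passed (KRT10 and KRT8P36, both lower) against 33.3% of all genes, and under EWS-FLI1 3 of 4 against 35.9%, with KRT8 added as higher. In ΔIDR1b against WT 3 of 4 (KRT8, KRT10 and KRT8P36, all lower) passed against 24.5%, and 2 of 4 (KRT10 and KRT8P36) under EWS-FLI1 against 18.6%. With 4 genes these shares are a description. Without WT repeat 1 of the empty vector, 802 genes were called in WT against no ARID1A under the empty vector in place of 2381. With the replicate block within each vector, the genes called in WT against no ARID1A under the empty vector numbered 3606.

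**Figure D3:**
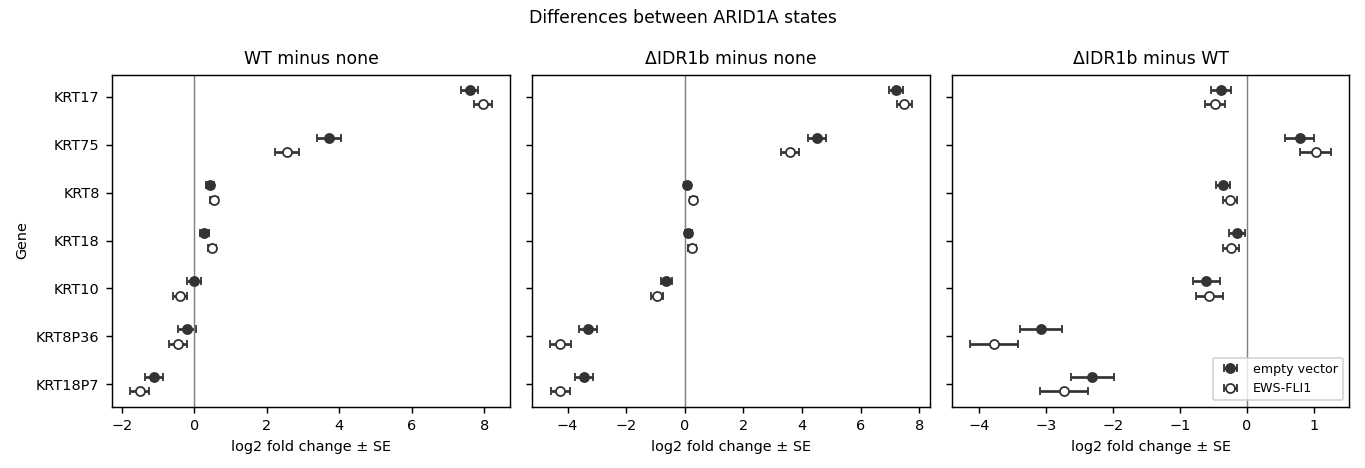
log2 fold change with its SE (bars) for 5 listed keratins and for KRT75 and KRT18P7 in the 3 comparisons of ARID1A states; filled points are the empty vector, open points EWS-FLI1. KRT17 and KRT75 lie to the right of 0 in both comparisons with no ARID1A, and KRT8P36 is far to the left of 0 where ΔIDR1b is compared.

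KRT17 differed far less between EWS-FLI1 and the empty vector than between ARID1A states. It was lower with EWS-FLI1 by a log2 fold change of -0.31 (SE 0.14) in WT and -0.41 (SE 0.14) in ΔIDR1b cells, where the libraries did not overlap between vectors. Without ARID1A it was -0.68 (SE 0.46) with overlapping libraries, and 0.58 without no ARID1A repeat 2 of the empty vector. In ΔIDR1b cells the value was -0.69 without ΔIDR1b repeat 2 of EWS-FLI1. The differences between states in this effect were 0.36 (WT less no ARID1A), 0.27 (ΔIDR1b less no ARID1A) and -0.09 (ΔIDR1b less WT), each smaller than its SE.

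None of the 4 members KRT8, KRT18, KRT10 and KRT8P36 passed edgeR's test for EWS-FLI1 in a single state or on average over the 3 states, where 0.0442% (no ARID1A), 0.221% (WT), 0.172% (ΔIDR1b) and 0.466% (average) of all genes did. At an unadjusted p under 0.05 the counts were 0, 1, 2 and 2 of 4, where 643, 1331, 1110 and 1610 of all 20377 genes lay under it. KRT16 passed the filter through WT libraries and at low counts, so no test of it for EWS-FLI1 is given. Its log2 fold change was 0.60 (SE 0.78) in WT and -0.62 (SE 0.88) in ΔIDR1b cells, and it had 0 counts without ARID1A. The log2 fold change of KRT8 was 0.14 (adjusted p = 1) without ARID1A, 0.25 (adjusted p = 0.690) in WT, 0.36 (adjusted p = 0.394) in ΔIDR1b cells and 0.25 (SE 0.06, adjusted p = 0.0679) on average. Its libraries with EWS-FLI1 lay above those with the empty vector in each state. With the replicate block within each vector KRT8 passed in ΔIDR1b cells (0.35, adjusted p = 0.0200) and on average (0.25, adjusted p = 4.18e-04). The average was also called without WT repeat 1 of the empty vector (0.31, adjusted p = 0.0177), WT repeat 1 (0.28, 0.00187) or repeat 2 (0.22, 0.0224) of EWS-FLI1 or ΔIDR1b repeat 1 of EWS-FLI1 (0.29, 0.0164), with no filter on low counts (0.25, 0.00731) and with the replicate block crossed between vectors, which was chosen after seeing the data (0.25, 0.00186). DESeq2 called none of the 4 for EWS-FLI1. In the tests of whether the response to EWS-FLI1 differed between states, edgeR called 0 of the 4 in each of the 3 interactions. Of all genes 0.0245%, 0.0196% and 0% were called there. At an unadjusted p under 0.05 the count was again 0 of the 4 in each, where 884, 702 and 741 of all genes lay under it.

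**Figure D4:**
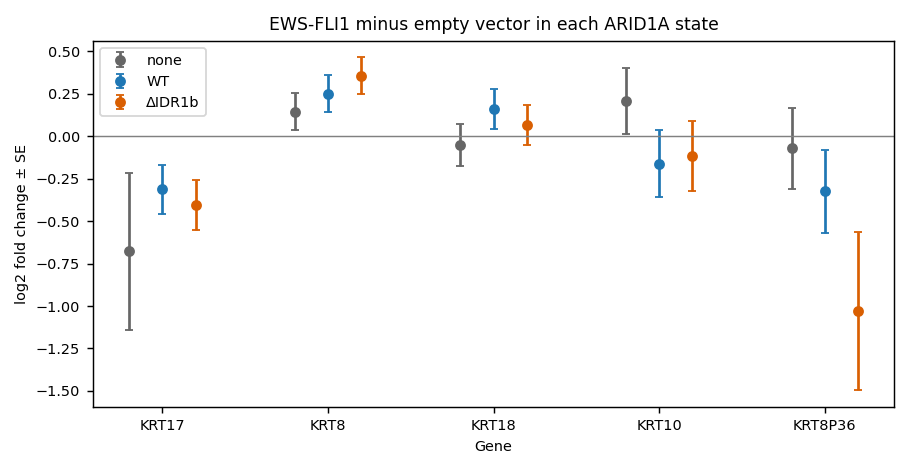
log2 fold change (EWS-FLI1 less empty vector) with its SE for KRT17, KRT8, KRT18, KRT10 and KRT8P36 in each ARID1A state. KRT17 lies below 0 and KRT8 above 0 in all 3 states, and KRT8P36 in ΔIDR1b cells has the lowest value, -1.03, with an adjusted p of 0.890.

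Among the 194 other keratin names, 21 passed the filter on low counts (6 genes and 15 pseudogenes). Under the empty vector 1 of the 21 was called higher and 1 lower with WT, and 2 higher and 2 lower with ΔIDR1b, where 11.7% and 33.3% of all genes were called. The median log2 fold change was -0.36 and -0.15, against -0.01 and 0.00 over all genes. KRT75, a type II keratin of the hair follicle, was the gene that rose in both: it held 0.743 and 0.823 CPM without ARID1A, 11.8 and 9.04 with WT and 16.8 and 19.1 with ΔIDR1b. Under EWS-FLI1 KRT75 held 1.28 and 0.864 CPM without ARID1A, 5.12 and 7.58 with WT and 12.3 and 13.6 with ΔIDR1b. No library without ARID1A reached those with a construct. Its log2 fold change was 3.72 (SE 0.32, adjusted p = 3.75e-10) with WT and 4.50 (SE 0.31, adjusted p = 2.26e-13) with ΔIDR1b under the empty vector, and 2.56 (adjusted p = 6.33e-07) and 3.58 (adjusted p = 4.06e-11) under EWS-FLI1.

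Unlike KRT17, KRT75 was higher with ΔIDR1b than with WT, by 0.79 (adjusted p = 0.00783) and 1.03 (adjusted p = 0.00193). The first was 0.61 (adjusted p = 0.122) without WT repeat 2 and 0.69 (adjusted p = 0.0960) without ΔIDR1b repeat 2. The pseudogene KRT18P7, in an intron of MED6 on the opposite strand, fell with WT (-1.13, adjusted p = 0.00261) and further with ΔIDR1b (-3.44, adjusted p = 1.19e-10) under the empty vector. Its means were 12.6 ± 1.37 CPM without ARID1A, 5.78 ± 2.07 with WT and 1.16 ± 0.0839 with ΔIDR1b (SD, n = 2), so that the 3 states had separate levels. The fall with WT was -1.01 (adjusted p = 0.0535) without no ARID1A repeat 2 and -0.80 (adjusted p = 0.125) without WT repeat 1. MED6 changed by -0.40 (adjusted p = 0.0613) with WT and -0.85 (adjusted p = 1.93e-05) with ΔIDR1b. KRT35, a hair keratin, was called higher with ΔIDR1b (1.53, adjusted p = 0.0191), a call that was lost without no ARID1A repeat 1 (adjusted p = 0.0723), no ARID1A repeat 2 (0.109) or ΔIDR1b repeat 2 (0.137). Against WT under the empty vector KRT35 was higher with ΔIDR1b by 2.52, a call kept in every alternative. Its means were 0.559 ± 0.0511 CPM with WT and 3.25 ± 0.562 with ΔIDR1b. In ΔIDR1b against WT, 4 of the 21 were called higher and 1 lower, where 24.5% of all genes were called. Under EWS-FLI1 2 were higher and 2 lower, against 18.6%. The pseudogenes KRT8P12, KRT8P33 and KRT8P46, which complete the 5 other keratin names with the most counts, had means of 3.10, 3.36 and 3.76 CPM without ARID1A under the empty vector, and none of them was called in a comparison of states with no ARID1A.

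The genes around KRT17 were examined in a window of 150 kb on each side, a size chosen after values had been seen. It held 21 gene names, of which 17 had a count and 8 passed the filter. KRT16, 3.5 kb away, is described above without a test, and none of the 6 other tested neighbours was called with both constructs under the empty vector. KRT13, KRT36 and HAP1 were not called there with either (adjusted p from 0.0888 to 0.932). KRT35, also in this window, was called with ΔIDR1b only (1.53, adjusted p = 0.0191), with the losses given above. Under EWS-FLI1 KRT36, a hair keratin, held 0.301 ± 0.0636 CPM without ARID1A, 1.10 ± 0.593 with WT and 2.04 ± 0.522 with ΔIDR1b (SD, n = 2). Its level without ARID1A is close to the floor of 3 counts in a library. KRT36 passed the filter through groups in which it was higher, so no test of this difference is given. JUP, the desmosomal protein plakoglobin at 129.8 kb, was called with WT under EWS-FLI1 (0.43, adjusted p = 0.00478), a call lost only without no ARID1A repeat 1. Under the empty vector JUP was called with WT (0.37, adjusted p = 0.0226). That call was lost without either library of no ARID1A, without WT repeat 1 or with upper-quartile scaling (adjusted p = 0.0671). EIF1, a translation initiation factor at 64.0 kb, was called lower with ΔIDR1b (-0.32, adjusted p = 0.00914), and lost the call without no ARID1A repeat 1 (adjusted p = 0.137), ΔIDR1b repeat 1 (0.0505) or ΔIDR1b repeat 2 (0.0785).

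**Figure D5:**
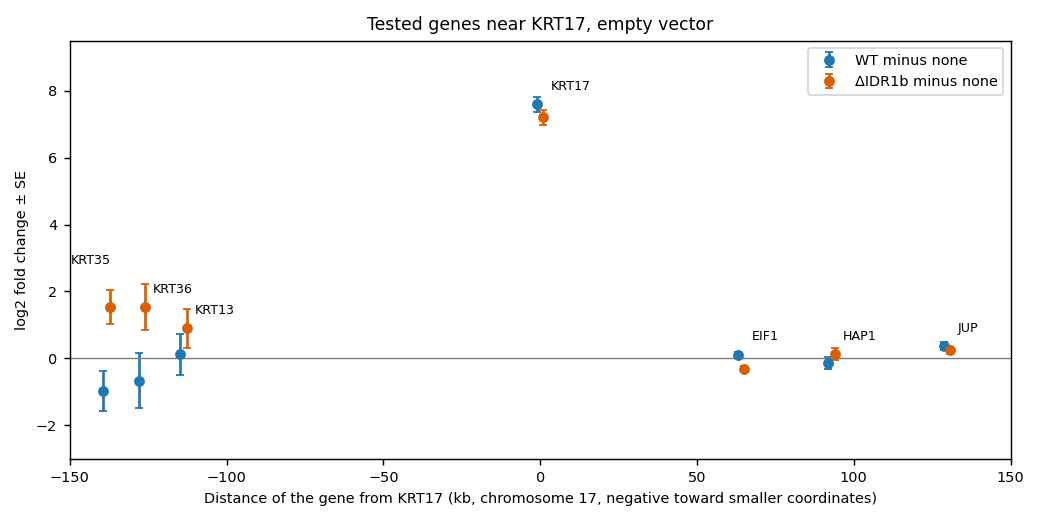
log2 fold change with its SE under the empty vector for tested genes within 150 kb of KRT17, by distance in kb; KRT16 is left out because its group without ARID1A is at 0 counts. KRT17 stands at 7.60 and 7.21, and the other genes shown lie between -0.99 and 1.53.

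The partners that anchor keratins were followed in a list of 25 genes, of which 20 were tested. Under the empty vector 3 were called higher and 0 lower with WT, and 7 higher and 2 lower with ΔIDR1b, where 11.7% and 33.3% of all genes were called. The medians were 0.11 and 0.31 against -0.01 and 0.00 over all genes. EPPK1 (epiplakin, which binds keratin filaments) rose most, from 2.27 ± 0.992 CPM without ARID1A to 7.08 ± 0.653 with WT and 30.0 ± 1.31 with ΔIDR1b (SD, n = 2). Its log2 fold change was 1.64 (adjusted p = 1.13e-04) and 3.72 (adjusted p = 1.64e-13). FAM83H, which helps to organize keratin filaments, rose with ΔIDR1b (0.85, adjusted p = 6.49e-05), as did the hemidesmosome integrin ITGB4 (0.65, adjusted p = 0.0229), and PNN (pinin) fell (-0.75, adjusted p = 4.37e-07). DSP (desmoplakin), which ties keratins to desmosomes, rose with ΔIDR1b under the empty vector (0.51, adjusted p = 8.29e-05) and with WT and ΔIDR1b under EWS-FLI1 (0.46, adjusted p = 8.40e-04, and 0.55, adjusted p = 3.11e-05), calls kept in every alternative. With WT under the empty vector DSP was called at 0.35 (adjusted p = 0.0150). ITGB4 lost its call without each of the 4 libraries compared (adjusted p from 0.0654 to 0.135), and DSP lost this last call without no ARID1A repeat 1 (0.111), no ARID1A repeat 2 (0.123) or WT repeat 2 (0.160) and with upper-quartile scaling (0.0527).

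Of 15 intermediate filament genes other than keratins, 12 were tested. Under the empty vector 1 was called higher and 0 lower with WT, and 3 higher and 2 lower with ΔIDR1b, against 11.7% and 33.3% of all genes called. The medians were 0.11 and 0.17, against -0.01 and 0.00 over all genes. LMNB2 (lamin B2, of the nuclear lamina) rose with both, by 0.46 (adjusted p = 0.00410) and 0.48 (adjusted p = 6.16e-04). NES (nestin) rose with ΔIDR1b from 11.9 ± 1.85 to 25.8 ± 0.869 CPM (log2 fold change 1.11, adjusted p = 6.40e-06), and SYNM (synemin) by 0.74 (adjusted p = 0.00432), while NEFL (neurofilament light chain) fell by 0.32 (adjusted p = 0.0282). Without WT repeat 1 LMNB2 with WT had an adjusted p of 0.0737. SYNM lost its call without no ARID1A repeat 2 (adjusted p = 0.0904) or ΔIDR1b repeat 2 (0.0914), and NEFL without each of the 4 libraries compared (0.0683 to 0.200) and with no filter (0.0615).

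The genes whose levels ran most like KRT17 were picked by Pearson r of log2(CPM + 0.5) over the 12 libraries among 16689 genes with a mean of at least 1 CPM. The 5 highest were ELAVL1 (0.991), CORO1C (0.987), CCL5 (0.986), RSAD2 (0.986) and FEN1 (0.986), and the 3 lowest DCAF8 (-0.985), COX20 (-0.984) and TSC1 (-0.981). These r are a description, since all points share the same libraries and the same 6 groups. CCL5, a chemokine, had means of 28.9 ± 2.13 CPM without ARID1A, 93.1 ± 16.3 with WT and 75.4 ± 3.14 with ΔIDR1b under the empty vector, and RSAD2, an interferon-induced enzyme, had 1.08 ± 0.0573, 4.96 ± 0.700 and 4.41 ± 0.544 CPM (SD, n = 2). FEN1, a nuclease of DNA replication, had 68.3 ± 2.93, 132 ± 10.6 and 136 ± 2.78 CPM. DCAF8, a ubiquitin ligase adaptor, ran the other way, with 98.9 ± 3.48, 54.2 ± 3.06 and 58.2 ± 2.71 CPM. All of them changed far less in fold than KRT17.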

How the data were processed

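Per the file headers, the authors used featureCounts 2.0.1 to count read pairs over exons of the GENCODE 41 annotation (GRCh38, patch 13), leaving out fragments that mapped to several places or to several genes and using no strand option. The deposited values are raw counts per gene name, without normalization. The submitters' processing notes name STAR, SAMtools and edgeR without versions. filterByExpr of edgeR 4.0.16 (minimum count 10, minimum total 15) left 20377 genes. The counts were scaled by TMM and fitted over all 12 libraries with 1 mean per group, with limma 3.58.1 and R 4.3.3. Each of 13 contrasts was tested with edgeR's 2-sided quasi-likelihood test, with a call where the Benjamini-Hochberg adjusted p over all genes was under 0.05. The common biological variation was 10.1%. Floors of 3 counts cover counting error only.

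On simulated counts of 19463 genes the procedure recovered 78% of genes changed by 1 and 93% of those changed by 2 on the log2 scale in WT against no ARID1A, and 75% and 90% in ΔIDR1b against WT, both with the empty vector. It made 7 and 3 other calls there, and 0 for EWS-FLI1 without ARID1A, where no gene was changed. The simulation changed 200 genes, all at a mean of at least 1 CPM, and gave each gene the spread fitted for its level. It does not cover changed genes below 1 CPM or comparisons in which many more genes differ. The difference between libraries of a group was above sampling noise in all 6 groups (chi-square per degree of freedom 3.02 to 12.1).

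The members and the lists of keratins, anchors, filaments, regulators and markers were chosen with earlier results of these data known. All 10 members were named, with the 5 other keratins of most counts, up to 4 called genes of each list by absolute log2 fold change at a mean of at least 1 CPM, and the 5 genes most and 3 least like KRT17. Called genes in small counts or near KRT17 that fall outside this were named after their values were seen. The repeat numbers were checked as pairs: at a mean of at least 10 CPM (10695 genes) the deviations of equal numbers correlated at 0.105 to 0.194 among empty-vector groups and 0.154 to 0.415 among EWS-FLI1 groups, and at -0.225 to -0.008 across vectors. At a mean of at least 1 CPM the values were 0.024 to 0.075, 0.046 to 0.184 and -0.087 to 0.009. The pairing within vectors thus comes from the data and not from the labels, and depends on the limit. Alternatives were other scalings, no filter, replicate blocks, only the libraries compared, DESeq2 1.42.0 and leaving out each library.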

Additional observations from a re-analysis of the deposited data

How the results depend on the processing

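Over the comparisons of ARID1A states, 571 of 605 member values under an alternative (those of KRT16 against no ARID1A left out) kept their direction and their side of the threshold, 21 lost a call, 4 gained one, 6 changed sign and 3 values of KRT17 moved by more than the spread between libraries. For EWS-FLI1 in single states and on average, over 5 members without KRT16, 374 of 395 did, 8 gained a call, 12 changed sign and 1 moved. The causes were not tested. No other scaling shifted the median of all genes by more than 0.065 on the log2 scale. KRT16 had no value in some fits of only the libraries compared and with DESeq2. With 2 libraries a group, a group left with 1 library is assumed to vary like the others.

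With no filter on low counts, 16 genes were called for EWS-FLI1 without ARID1A, 75 in WT and 6 for the interaction of ΔIDR1b with WT, in place of 9, 45 and 0. With the replicate block within each vector, 3606 genes were called in WT against no ARID1A with the empty vector (2381 without it). For EWS-FLI1 that block gave 17 genes without ARID1A, 119 in WT, 109 in ΔIDR1b and 232 on average (95 without it), and 16 and 10 in the interactions of WT with no ARID1A and of ΔIDR1b with WT. It changed no call of a member beside the 3 of KRT8 given above. The crossed replicate block, chosen after seeing the data, gave 80 genes in WT, 63 in ΔIDR1b and 159 on average, KRT8 among the last. Using only the libraries compared gave 2202 genes in WT against no ARID1A and 1622 in ΔIDR1b against WT with EWS-FLI1, and for EWS-FLI1 16 without ARID1A, 26 in WT and 56 in ΔIDR1b. KRT10 in WT against no ARID1A with the empty vector was 0.006 with a replicate block over all libraries and 0.007 with the block within each vector.

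Leaving out 1 library at a time moved the count in WT against no ARID1A between 802 and 3550 (empty vector) and between 1828 and 3795 (EWS-FLI1). For ΔIDR1b against no ARID1A with the empty vector it ran from 4484 to 7781. ΔIDR1b against WT ran from 2754 to 6138 and from 1886 to 4383. For EWS-FLI1 the counts ran from 5 to 15 without ARID1A, 24 to 230 in WT, 23 to 74 in ΔIDR1b and 65 to 316 on average. The interactions ran from 5 to 48 (WT with no ARID1A) and from 0 to 26 (ΔIDR1b with WT). Log2 fold changes that changed sign, without a call, were those of KRT10 (-0.255 to 0.27) and KRT8P36 (-0.472 to 0.124) in WT against no ARID1A with the empty vector, and KRT16 in ΔIDR1b against WT with the empty vector (-0.958 to 0.318). For EWS-FLI1 without ARID1A they were KRT17 (-1.341 to 0.58), KRT18 (-0.116 to 0.01), KRT10 (-0.031 to 0.494) and KRT8P36 (-0.339 to 0.257). In ΔIDR1b cells they were KRT18 (-0.068 to 0.191) and KRT10 (-0.37 to 0.192), and on average KRT10 (-0.108 to 0.079).

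Members under about 10 counts in a library (KRT14, KRT15, KRT7 and KRT19) are limited by depth, and a count of 0 allows 0.209 to 0.259 CPM in a library.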

Other observations

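Transcription factors known to act on epithelial keratin genes, with the chromatin remodeling ATPase SMARCA4, were followed in a list of 20, of which 16 were tested. Under the empty vector 3 were called higher and 0 lower with WT against no ARID1A, and 5 higher and 3 lower with ΔIDR1b, where 11.7% and 33.3% of all genes were called. The medians were 0.14 and 0.15 against -0.01 and 0.00 over all genes. GRHL1 (grainyhead-like 1, an activator of epithelial genes) rose with both, from 2.05 ± 0.150 CPM without ARID1A to 6.15 ± 0.0349 with WT (log2 fold change 1.58, adjusted p = 9.48e-04) and 6.82 ± 1.27 with ΔIDR1b (1.73, adjusted p = 5.59e-05; SD, n = 2). KLF4 fell with ΔIDR1b, from 54.5 ± 7.19 to 31.1 ± 3.80 CPM (-0.81, adjusted p = 2.99e-05). GLI1 and GLI2, effectors of hedgehog signalling, rose with ΔIDR1b by 1.00 (adjusted p = 0.00854) and 0.62 (adjusted p = 0.00306). AHR (0.67, adjusted p = 0.0291) and SP1 (0.34, adjusted p = 0.0155) were called higher with WT. GRHL1 and KLF4 kept these calls in every alternative. Under EWS-FLI1 GRHL1 was not called with WT (0.72, adjusted p = 0.110) and was called with ΔIDR1b (0.99, adjusted p = 0.0121), but not without no ARID1A repeat 1 (adjusted p = 0.169) or ΔIDR1b repeat 2 (0.113). KLF4 fell there too with ΔIDR1b (-1.13, adjusted p = 1.88e-07). GLI1 lost its call without no ARID1A repeat 1 (adjusted p = 0.0682) or ΔIDR1b repeat 1 (0.0557), and GLI2 without no ARID1A repeat 1 (0.0657). AHR lost its call without no ARID1A repeat 1 (0.125), no ARID1A repeat 2 (0.155) or WT repeat 1 (0.260). SP1 lost it without each of the 4 libraries compared (0.0765 to 0.163) and with upper-quartile scaling (0.0554).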
